A study of Mus musculus with 8 samples.

Results

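The HOX genes encode homeobox transcription factors that lie side by side in 4 clusters of the mouse genome, Hoxa on chromosome 6, Hoxb on chromosome 11, Hoxc on chromosome 15 and Hoxd on chromosome 2. The set described here was made up of 38 HOX genes, 10 of Hoxa, 10 of Hoxb, 9 of Hoxc and 9 of Hoxd. A chromatin loop was counted for a HOX gene when 1 of its 2 ends, called anchors, lay within 2 kb of an annotated transcript start of that gene. By this rule 10 of the 38 genes had an anchor, 8 anchors were involved because 2 of them each served a pair of neighbouring genes, and 128 of the 249200 distinct loops of the series were attached to them.

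Genes at 1 end of a HOX cluster (the low paralogue groups) are switched on early and towards the head of the embryo, and genes at the other end (the high paralogue groups) later and towards the tail, so that the order along the chromosome matches the order along the body. Their control rests on contacts between the promoters of a cluster and enhancers in the gene-poor regions on both sides, and clusters that are silent are usually covered by Polycomb proteins. HOX proteins bind DNA together with the cofactors of the PBX, MEIS and PKNOX families. Several HOX genes are known to be expressed in pancreatic cancer cells.

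The loops came from Hi-ChIP, which joins chromosome conformation capture with immunoprecipitation and reads out contacts between distant fragments where a chosen protein is bound. The protein was FOXA1, a pioneer factor of the forkhead family, or HNF4G, a nuclear receptor of the HNF4 family. Each was captured in mouse pancreatic cancer cells of the KPC model, from the primary tumour line and from the matched liver metastasis line (liver mets). All 8 samples carried the genotype label WT and the treatment label Untreated, and no label gave the alleles of the model. Each of the 4 groups (FOXA1 liver mets, FOXA1 tumour, HNF4G liver mets and HNF4G tumour) had 2 replicates, whose loops were deposited as 1 list per group. There was therefore no spread between replicates and no test between groups. The comparison of liver mets with tumour was that of a pair of cell lines, so a property of 1 line cannot be told apart from one of metastasis. Intervals given below are 95% intervals that cover counting error only, and they are too narrow to the extent that loops sharing an anchor are not independent. The lists hold no expression, so the labelled cell type could not be checked against marker genes, and whether any HOX gene was transcribed in these cells was not analysed here.

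The 4 lists held 125623 loops in FOXA1 liver mets, 104136 in FOXA1 tumour, 78098 in HNF4G liver mets and 76323 in HNF4G tumour. Their depth in read pairs is unknown, and the number of loops per list stands in for it below as a divisor. Over all 4 lists there were 30542 anchors, of which 13819 lay within 2 kb of the start of any gene.

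Most of the anchors fell towards the ends of the clusters that carry the high paralogue groups. Of the 16 members of groups 9 to 13, 8 had an anchor (50%), and of the 22 members of groups 1 to 8, 2 had one (9.09%). Over all 21924 protein-coding genes of the annotation, 10786 had an anchor within 2 kb (49.2%), against 26.3% of the 38 HOX genes. The genes with an anchor were Hoxa4, Hoxa9, Hoxa10 and Hoxa13 in Hoxa, Hoxb7 alone in Hoxb, Hoxc9, Hoxc11 and Hoxc13 in Hoxc, and Hoxd12 and Hoxd13 in Hoxd. All low-group members of Hoxc and Hoxd were without an anchor.

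The other 28 genes had none. In Hoxa these were Hoxa2, Hoxa3, Hoxa5, Hoxa6, Hoxa7 and Hoxa11. In Hoxb they were Hoxb1, Hoxb2, Hoxb3, Hoxb4, Hoxb5, Hoxb6, Hoxb8, Hoxb9 and Hoxb13. In Hoxc they were Hoxc4, Hoxc5, Hoxc6, Hoxc8, Hoxc10 and Hoxc12, and in Hoxd they were Hoxd1, Hoxd3, Hoxd4, Hoxd8, Hoxd9, Hoxd10 and Hoxd11. The nearest start of these genes lay between 2037 bp (Hoxb8) and 79256 bp (Hoxb1) from an anchor. Just inside the 2 kb limit were Hoxd13 at 1719 bp and Hoxa13 at 1078 bp, and just outside were Hoxb8 at 2037 bp and Hoxd11 at 4956 bp. Hoxa10 was included through an internal transcript start 115 bp from its anchor, since the 5′ end of the gene lay 7645 bp away.

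In mm10 coordinates, the 3 Hoxa anchors were chr6:52191192-52192835 at Hoxa4, chr6:52229987-52233209 at Hoxa9 and Hoxa10, and chr6:52261958-52266598 beside Hoxa13. The Hoxa4 anchor covered the start and the beginning of the coding region of Hoxa4 and lay inside the longer gene model of Hoxa3. The Hoxa9/Hoxa10 anchor covered the 5′ end of the Hoxa9 gene model, the end of the Hoxa10 coding region and the microRNA gene Mir196b. The Hoxa13 anchor did not reach Hoxa13 itself and overlapped exons of Hottip, the noncoding RNA transcribed away from Hoxa13.

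The other 5 anchors were chr11:96284762-96286496, 127 bp before the start of Hoxb7 and over the 3′ end of Hoxb8, chr15:102975193-102976590 at the start of Hoxc9, chr15:102954407-102956044 at Hoxc11, chr15:102919952-102922414 at Hoxc13, and chr2:74670029-74674601 over the 3′ part of Hoxd13 and up to 412 bp before Hoxd12. The starts of Hoxa4, Hoxa9, Hoxc9, Hoxc11 and Hoxc13 lay inside their anchors.

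The anchors at Hoxa9/Hoxa10 and Hoxc9 lay at or within 2 kb of the microRNA genes Mir196b and Mir196a-2. Their mature 5p products are shown because they target HOX messenger RNAs and share 1 seed, bases 2 to 8 from the 5′ end, given in capitals. Sequences were taken from RefSeq on GRCm38, with Mir196b at chr6:52230129-52230150 on the minus strand and Mir196a-2 at chr15:102973365-102973386 on the plus strand.
mmu-miR-196b-5p: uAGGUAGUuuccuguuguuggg
mmu-miR-196a-5p: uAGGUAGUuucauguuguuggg
Mir196b lay inside its anchor, and the mature Mir196a-2 product 1807 bp from the Hoxc9 anchor. The copy in Hoxb, Mir196a-1, was 19554 bp from the Hoxb7 anchor, and the mature 5p products of Mir10a and Mir10b, which share another seed, were 30690 bp and 51473 bp from the nearest anchor, which in both cases was that of a HOX gene.

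The anchors differed in base composition. In their central 1000 bp, the number of CpG dinucleotides was 94 at Hoxa4, 79 at Hoxc13, 70 at Hoxc11, 51 at Hoxc9, 40 at Hoxb7, 21 at Hoxd12/Hoxd13, 8 at Hoxa9/Hoxa10 and 6 at Hoxa13. The median was 35 over all anchors at gene starts and 14 over all anchors. The anchors with the most CpG and the fewest were thus both in Hoxa, and the richest in CpG were not those with the most loops, as described below. The central 200 bp of 3 anchors without an annotated exon in that stretch are shown to make the contrast visible, with CpG in capitals, on the plus strand of GRCm38.
Hoxa4 anchor, chr6:52191914-52192113: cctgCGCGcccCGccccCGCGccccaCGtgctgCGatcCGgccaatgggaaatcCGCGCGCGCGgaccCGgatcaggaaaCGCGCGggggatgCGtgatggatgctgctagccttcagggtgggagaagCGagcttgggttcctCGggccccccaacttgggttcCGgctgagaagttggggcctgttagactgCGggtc
Hoxa13 anchor, chr6:52264178-52264377: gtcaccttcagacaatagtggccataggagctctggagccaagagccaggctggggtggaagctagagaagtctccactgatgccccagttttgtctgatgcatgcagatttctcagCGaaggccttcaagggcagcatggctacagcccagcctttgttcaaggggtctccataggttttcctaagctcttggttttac
Hoxb7 anchor, chr11:96285529-96285728: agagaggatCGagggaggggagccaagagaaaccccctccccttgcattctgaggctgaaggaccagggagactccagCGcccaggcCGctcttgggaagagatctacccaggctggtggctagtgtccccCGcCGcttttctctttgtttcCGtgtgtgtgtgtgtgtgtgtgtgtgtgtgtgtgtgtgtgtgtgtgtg
These 200 bp held 22 CpG at Hoxa4, 1 at Hoxa13 and 6 at Hoxb7.

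The anchors were searched for core motifs of the captured factors. The forkhead core TGTTTAC, searched on both strands, was present in the central 1000 bp of 19.8% of all 30542 anchors and of 14.96% of the 13819 anchors at gene starts, and in 0 of the 8 HOX anchors. The HNF4 motif CAAAGTCCA, searched in the same way, was present in 1.75% of all anchors, in 1.48% of those at gene starts and in 0 of the 8 HOX anchors. Over the whole length of the 8 anchors, 1398 to 4641 bp, there was 1 forkhead match, in the Hoxa13 anchor (core in capitals, plus strand).
Hoxa13 anchor, chr6:52263054-52263090: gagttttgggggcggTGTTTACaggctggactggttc
A count of 0 among 8 anchors is near what the shares over anchors at gene starts would give for so few anchors, so these counts are a description and show no difference. Neither motif contains the other, and other forms of them were not searched. In the promoter windows of RefSeq, 250 bp before to 50 bp after a start on GRCm38, 24 windows of 22 HOX genes were given. Neither motif was present in any of the 24, against 3.65% of 32851 windows for the forkhead core and 0.475% for the HNF4 motif. These windows did not include Hoxa4, Hoxb7, Hoxc9, Hoxc11 or Hoxc13, and so most of the starts that lay inside an anchor, and none of the 24 overlapped a loop anchor. The windows of the HOX genes held between 4 and 45 CpG (median 14.5, against 7 for all windows).

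The HOX anchors had most loops in the HNF4G tumour list and, relative to list size, fewest in the FOXA1 liver mets list. There were 37 loops in FOXA1 liver mets, 45 in FOXA1 tumour, 33 in HNF4G liver mets and 64 in HNF4G tumour. Per 100000 loops of the list this was 29.5 (interval 20.7 to 40.6), 43.2 (31.5 to 57.8), 42.3 (29.1 to 59.3) and 83.9 (64.6 to 107) in the same order. FOXA1 tumour and HNF4G liver mets thus lay level with each other, and the interval of HNF4G tumour lay above those of all 3 other lists.

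Anchors close together on a chromosome are listed as a loop more often than distant ones, so the counts were also set against the number expected had the HOX anchors been listed at the rate of all anchor pairs of the same span. Observed over expected was 0.711 (0.501 to 0.981) in FOXA1 liver mets, 1.10 (0.804 to 1.48) in FOXA1 tumour, 1.15 (0.791 to 1.61) in HNF4G liver mets and 2.17 (1.67 to 2.78) in HNF4G tumour. With span taken into account, HNF4G tumour thus remained the highest list and FOXA1 liver mets the lowest, with FOXA1 tumour and HNF4G liver mets level between them. The interval lay wholly below 1 in FOXA1 liver mets and wholly above 1 in HNF4G tumour.

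**Figure D1:**
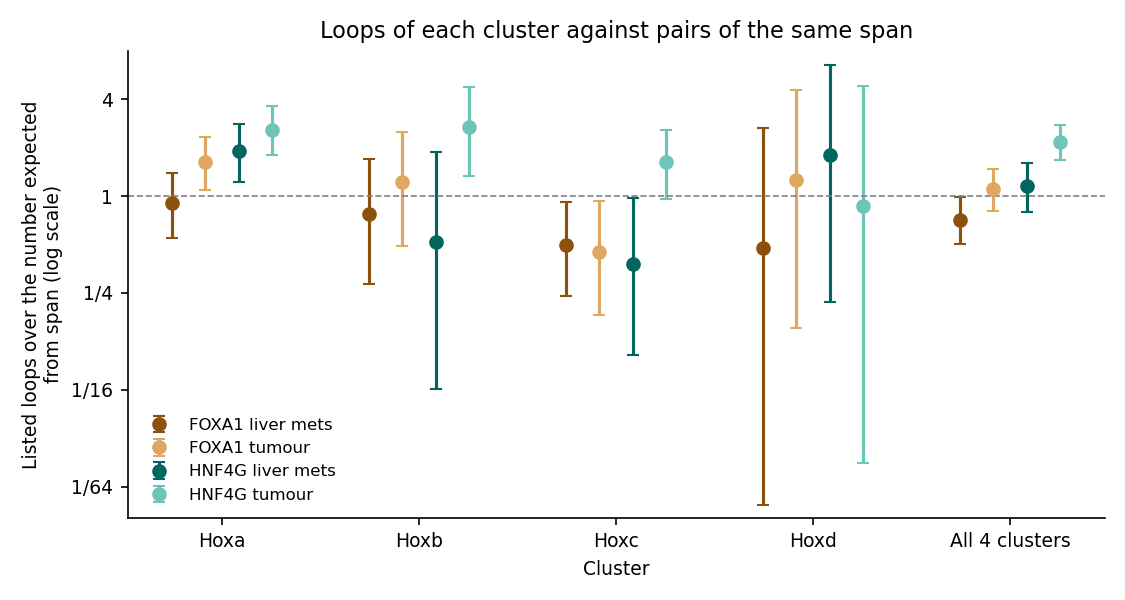
Listed loops divided by the number expected from span (vertical axis, log scale, no unit) for each HOX cluster and for all 4 clusters, in the 4 lists. Points are ratios and bars 95% Poisson intervals; HNF4G tumour stands at 2.59 in Hoxa, 2.68 in Hoxb and 1.63 in Hoxc, above the other lists, while the Hoxd bars are wide because they rest on 1 or 2 loops.

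For the comparison of metastasis with primary tumour, the share of HOX loops in the HNF4G lists was 0.504 times as large in liver mets as in tumour (0.321 to 0.779). In the FOXA1 lists it was 0.682 times as large (0.429 to 1.08). Both ratios were below 1, and the interval included 1 for FOXA1, although it lay below 1 without the Hoxa4 anchor, at 0.598 (0.364 to 0.971), and reached 0.9998 without the Hoxc9 anchor, at 0.626. In Hoxa, the cluster with most of the loops, the ratio was 0.719 (0.411 to 1.24) for HNF4G and 0.572 (0.307 to 1.05) for FOXA1, so that for HNF4G the interval lay below 1 in Hoxb and Hoxc but not in Hoxa. The difference between the 2 ratios was not tested. Between the factors, FOXA1 over HNF4G was 0.515 (0.344 to 0.766) in the tumour line and 0.697 (0.424 to 1.15) in the metastasis line. The ratio of the counts themselves, with no division by list size, was 0.703 (0.469 to 1.05) in the tumour line, so that its interval included 1, and 1.12 (0.682 to 1.85) in the metastasis line. The comparisons share lists in pairs and are not independent of each other.

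The neighbourhood of the clusters did not show this to the same extent. The 204 other anchors within 1000 kb of the clusters had 1500, 1310, 1025 and 1094 loops that did not touch a HOX anchor, in FOXA1 liver mets, FOXA1 tumour, HNF4G liver mets and HNF4G tumour. Their liver mets over tumour ratio of shares was 0.916 (0.840 to 0.998) for HNF4G and 0.949 (0.881 to 1.02) for FOXA1. The HNF4G interval of the HOX anchors, 0.321 to 0.779, lay below that of their surroundings, and the FOXA1 intervals overlapped. For FOXA1 over HNF4G in the tumour line the surroundings gave 0.878 (0.809 to 0.952), again above the interval of the HOX anchors. Around Hoxb the surroundings were also lower for HNF4G in liver mets, at 0.782 (0.685 to 0.892), whereas around Hoxc they were at 0.963 (0.837 to 1.11) and around Hoxa above 1, at 1.28 (1.01 to 1.62).

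Few HOX genes had enough loops for a gene-by-gene comparison. A ratio of shares was called lower when it was at most 1/1.5 and the gene had at least 20 loops over both lists compared. In FOXA1 liver mets over tumour 9.08% of 5353 genes were called, and of the HOX genes Hoxa13, the only one with enough loops, was among them at 0.497. In HNF4G liver mets over tumour 14.4% of 3536 genes were called. Hoxa9 and Hoxa10, which share 1 anchor and so 1 count, were among them at 0.456, and Hoxa13 was not, at 0.855. In FOXA1 over HNF4G 17.9% of 4228 genes were called lower in the tumour line, with Hoxa9 and Hoxa10 at 0.635 among them and Hoxa13 at 0.687 just outside. In the metastasis line 14.1% of 4694 genes were called, and Hoxa13 was among them at 0.400. At 1 or 2 independent anchors per comparison, these counts cannot be set against the background as a share.

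**Figure D2:**
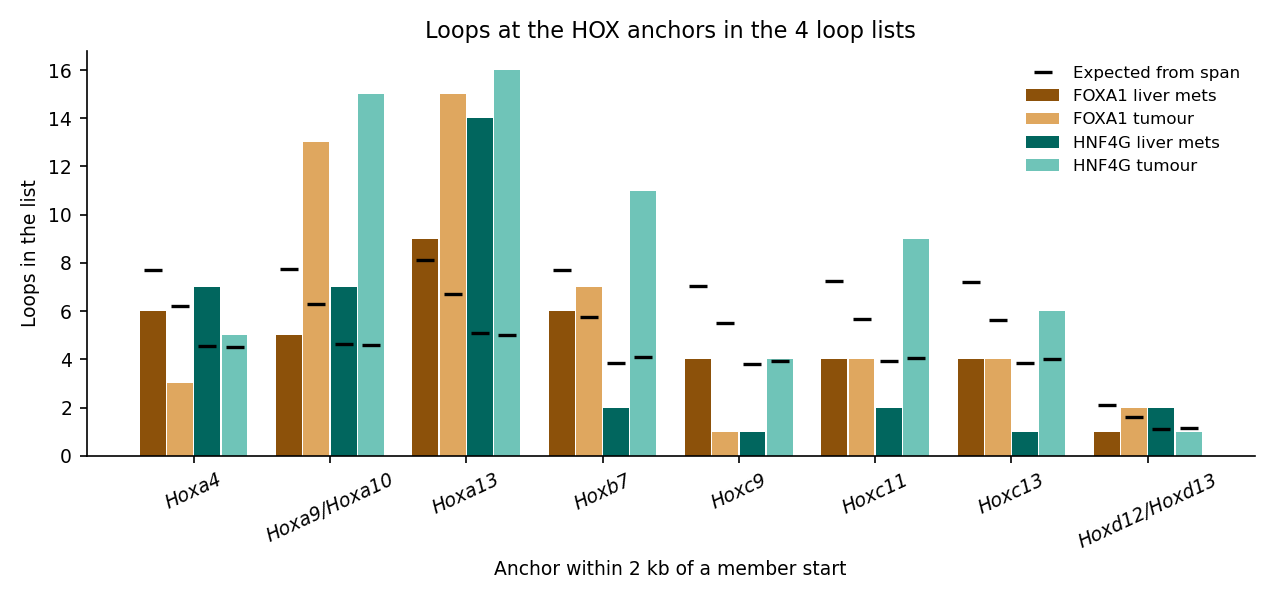
Number of loops (vertical axis) at each of the 8 HOX anchors (horizontal axis) in the 4 lists, with a dash for the number expected from the span of the anchor's pairs. Hoxa13 and Hoxa9/Hoxa10 reach 16 and 15 loops in HNF4G tumour, against 4.99 and 4.58 expected, and Hoxd12/Hoxd13 stays at 1 or 2 in every list.

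Hoxa13, the Hoxa gene of the highest group, which acts in limb and hindgut, had the most loops of the HOX anchors. It had 9 loops in FOXA1 liver mets, 15 in FOXA1 tumour, 14 in HNF4G liver mets and 16 in HNF4G tumour, where 8.11, 6.70, 5.11 and 4.99 were expected from span. Only in FOXA1 liver mets was the count near the expected one. Summed over the lists its 54 loops exceeded those of 87.5% of anchors at gene starts, whose median was 21.

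Hoxa9, known for its part in blood stem cells and leukaemia, and Hoxa10, known for its part in the uterus, shared the anchor with the next highest count. It had 5 loops in FOXA1 liver mets, 13 in FOXA1 tumour, 7 in HNF4G liver mets and 15 in HNF4G tumour. For each factor the tumour list was thus above the liver mets list, with observed over expected of 2.07 and 3.27 in the 2 tumour lists and 0.646 and 1.51 in the liver mets lists of FOXA1 and HNF4G. Its sum of 40 exceeded 77.1% of anchors at gene starts.

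Hoxa4, a gene of the cluster's other side, did not follow that order. It had 6 loops in FOXA1 liver mets, 3 in FOXA1 tumour, 7 in HNF4G liver mets and 5 in HNF4G tumour. Its counts were higher in liver mets than in tumour for both factors, by 3 and 2 loops, and its sum of 21 equalled the median of anchors at gene starts. For HNF4G this order rested on loops of low value, read below as a −log10 adjusted p. In HNF4G liver mets the highest value at Hoxa4 was 1.98, and all others were at most 0.946. HNF4G tumour held Hoxa4 loops of 1.49, 1.88 and 1.99, so with a minimum of 1.30 the HNF4G order was reversed.

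Hoxb7, which is expressed in several carcinomas, had 6 loops in FOXA1 liver mets, 7 in FOXA1 tumour, 2 in HNF4G liver mets and 11 in HNF4G tumour. The lowest and the highest count were thus those of the HNF4G lists. The ratio of shares between them was 0.178 (0.0191 to 0.814). All of Hoxb rested on this anchor.

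The 3 Hoxc anchors were also highest in HNF4G tumour or level with it. Hoxc11 had 4 loops in FOXA1 liver mets, 4 in FOXA1 tumour, 2 in HNF4G liver mets and 9 in HNF4G tumour. Hoxc13, a gene of hair and nail, had 4, 4, 1 and 6 in the same order. Hoxc9 had 4, 1, 1 and 4. Each of the 3 had fewer loops in HNF4G liver mets than in HNF4G tumour, and in the cluster as a whole the counts were 4 and 18, a ratio of shares of 0.217 (0.0535 to 0.659). For FOXA1 the Hoxc counts were 10 in liver mets and 7 in tumour, a ratio of 1.18 (0.407 to 3.67). Observed over expected for Hoxc was 0.498, 0.450 and 0.379 in FOXA1 liver mets, FOXA1 tumour and HNF4G liver mets, with intervals below 1, and 1.63 (0.965 to 2.57) in HNF4G tumour.

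Hoxd12 and Hoxd13, genes of the digits and the hindgut, shared an anchor with 1 loop in FOXA1 liver mets, 2 in FOXA1 tumour, 2 in HNF4G liver mets and 1 in HNF4G tumour. Only 9.20% of anchors at gene starts had fewer loops. Between 0.867 and 1.80 times the number expected was seen in 3 of the lists, and 0.476 times in FOXA1 liver mets, and the number expected was itself between 1.11 and 2.10 over the 4 lists. At these counts no difference between lists was detectable.

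Hoxa held more anchors than its length alone would give. In a window from its first to its last member with 10 kb added on each side, 118 kb in all, lay 6 anchors, or 5.07 per 100 kb, of which 3 were at members. Of these 6, 4 lay between the first and the last member. The genome held 1.20 per 100 kb. With the same 10 kb added, Hoxc had 3 anchors in 136 kb (2.21 per 100 kb), Hoxb 1 in 194 kb (0.516) and Hoxd 1 in 117 kb (0.856). The rates of Hoxb and Hoxd were thus below that of the genome, and those of Hoxa and Hoxc above it. With 1, 1 and 3 anchors, Hoxb, Hoxd and Hoxc had too few to be told apart from the genome.

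Most HOX loops left their cluster, with 63 of 128 distinct loops ending beyond its Hox13 side and 51 beyond the other side. Loops between 2 HOX anchors of 1 cluster made up 3 of 68 distinct loops in Hoxa (4.41%, 1.51 to 12.2) and 2 of 33 in Hoxc (6.06%, 1.68 to 19.6). Hoxb and Hoxd had 1 HOX anchor each and so could have none. No loop joined HOX genes of different clusters, since the clusters lie on different chromosomes and the lists held loops within a chromosome.

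All 3 possible pairs of the Hoxa anchors were listed, with low values. The value that goes with each loop was read as a −log10 adjusted p, a reading that rests on the values alone, so that a higher value would mean stronger evidence within its list. Hoxa4 to Hoxa9/Hoxa10, 39.6 kb apart, was in FOXA1 tumour (0.123), HNF4G liver mets (0.946) and HNF4G tumour (1.49). Hoxa4 to Hoxa13, 72.3 kb apart, was in HNF4G liver mets (0.146) and HNF4G tumour (0.526). Hoxa9/Hoxa10 to Hoxa13, 32.7 kb apart, was in FOXA1 tumour (0.123) and HNF4G liver mets (0.451). None of the 3 was in FOXA1 liver mets. In Hoxc, Hoxc13 to Hoxc11 at 34.0 kb was in every list but HNF4G liver mets, with values from 0.123 to 0.536, and Hoxc11 to Hoxc9 at 20.7 kb was in both FOXA1 lists, at 0.558 in liver mets and 0.123 in tumour.

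A further 9 Hoxa loops ended at 3 anchors that overlapped the cluster or the 10 kb on either side of it, but were at no HOX start. The 2 HOX loops found in all 4 lists were among them, and both belonged to Hoxa13. Hoxa13 to chr6:52268132-52271843, 5.71 kb away on the outer side of Hottip, had values of 1.86 in FOXA1 liver mets, 3.30 in FOXA1 tumour, 3.69 in HNF4G liver mets and 3.71 in HNF4G tumour. Hoxa13 to chr6:52252381-52254274, 11 kb away between Hoxa11 and Hoxa13, had values of 0.124, 0.118, 0.145 and 1.46 in that order. The shorter loop was thus the stronger in every list. The remaining anchor, chr6:52171655-52173135 over exons of Hoxa3, was joined to all 3 Hoxa anchors.

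At short range the Hoxa anchors were listed with all the anchors available. Of the 15 possible pairs of a Hoxa anchor with any anchor up to 100 kb away, 4 under 20 kb, 5 from 20 to 50 kb and 6 from 50 to 100 kb, every one was a loop in at least 1 list. Over all anchors the share was 80.5%, 81.5% and 67.4% in these ranges. Most of the 15 Hoxa pairs had low values, below 1.30 in every list that held them. The exceptions for Hoxa13 were chr6:52268132-52271843 (up to 3.71), chr6:52274584-52276539 (1.64) and chr6:52252381-52254274 (1.46). Those for Hoxa9/Hoxa10 were Hoxa4 (1.49) and chr6:52268132-52271843 (1.525). Shares listed at a minimum value were not calculated by span range. From 200 to 500 kb, 21 of 49 Hoxa pairs were listed (42.9%) against 28.5% of all pairs, and from 500 to 1000 kb 19 of 77 (24.7%) against 12.7%. Hoxc pairs were listed at 27.0% from 200 to 500 kb and at 4.20% from 500 to 1000 kb, the latter below the share of all pairs. Hoxb pairs were listed at 50% and 25% in these ranges, above all pairs, and at 0.826% from 1000 to 2000 kb, below the 5.77% of all pairs.

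The Hoxa anchors reached more often past Hoxa13 than past the other end of the cluster. Of the 56 Hoxa loops that left the cluster, 34 (60.7%, 47.6 to 72.4) went to the Hoxa13 side, towards Hibadh, Tax1bp1 and Jazf1, and 22 to the side of Skap2 and Snx10. In Hoxb the order was the other way, with 8 to the Hoxb13 side and 13 to the side of Hoxb1. Hoxc was even, with 16 and 15, and Hoxd had 5 to the Hoxd13 side and 1 to the other. The interval of every cluster included 50%.

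**Figure D3:**
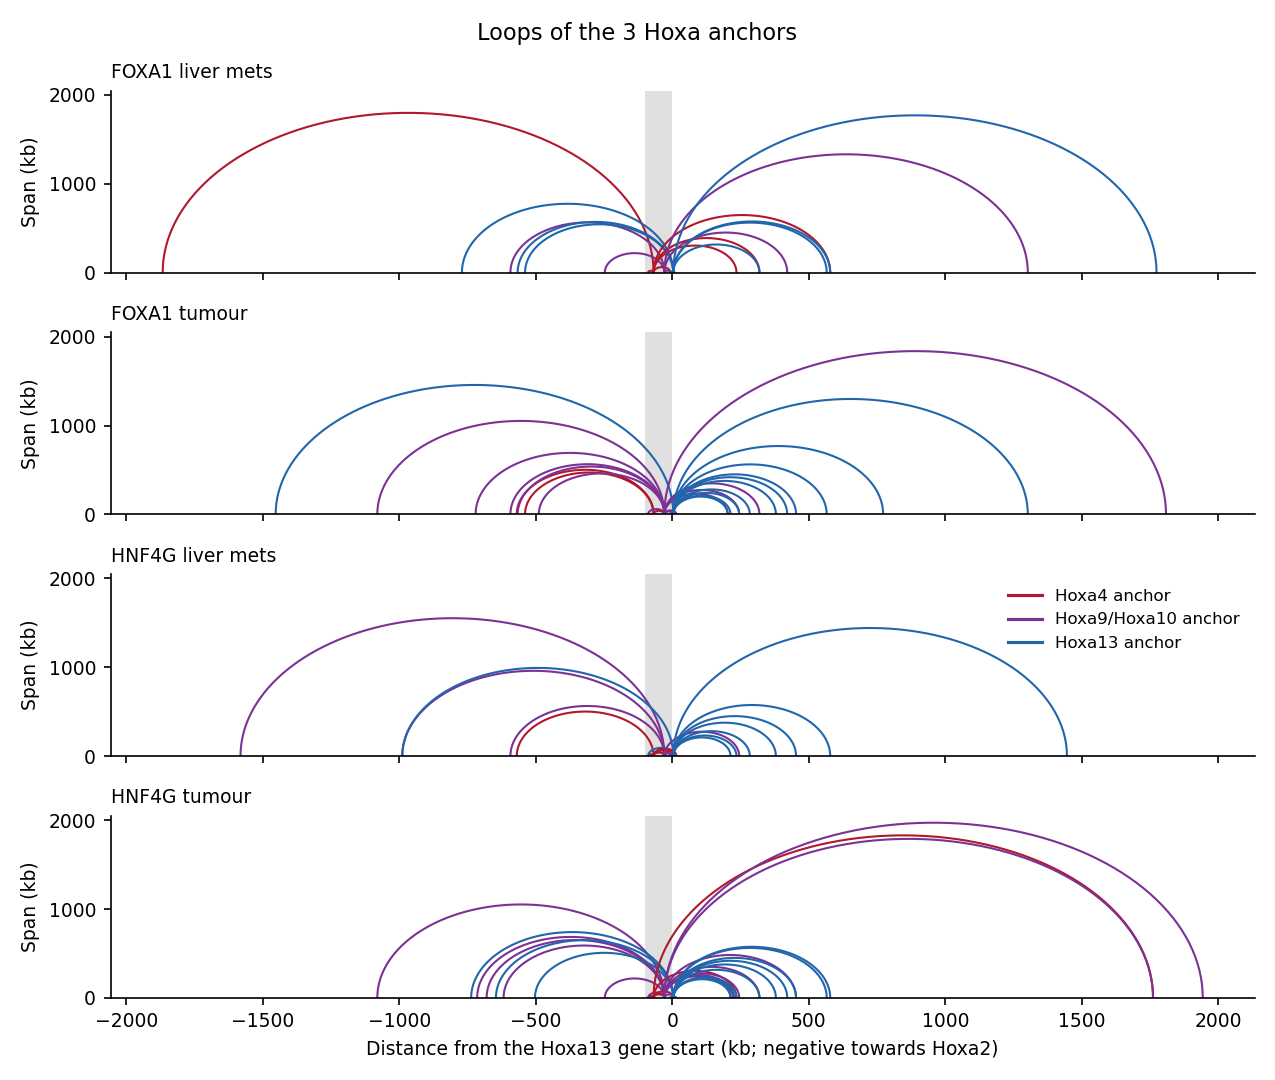
Each arc is a loop of the Hoxa4, Hoxa9/Hoxa10 or Hoxa13 anchor in 1 list, drawn by distance from the Hoxa13 start (horizontal axis, kb) with its height equal to its span (kb); the grey band is the cluster. The arcs on the right in the tumour lists, mainly from Hoxa13 and Hoxa9/Hoxa10, end mostly at anchors 200 to 575 kb away, and FOXA1 liver mets has the fewest arcs, 20, against 34 in HNF4G tumour.

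The partner that all 3 Hoxa anchors shared at long range was chr6:52577720-52581875, in an intron of Hibadh, an enzyme of valine breakdown. Hoxa13, 316 kb away, was joined to it in FOXA1 liver mets (3.17) and HNF4G tumour (5.74). Hoxa9/Hoxa10, 348 kb away, was joined to it in FOXA1 tumour (5.54) and HNF4G tumour (3.54). Hoxa4, 388 kb away, was joined to it in FOXA1 liver mets (3.31). These 5 values were all above 3, and 5.74 and 5.54 were the highest of any HOX loop in HNF4G tumour and FOXA1 tumour. In HNF4G liver mets no HOX anchor was listed with it. Over its whole length of 4156 bp the anchor held 1 match to the forkhead core and no match to the HNF4 motif. The forkhead match lay outside the central 1000 bp for which shares over all anchors are given, so it is a description only. It is shown in capitals with the bases around it on the plus strand of GRCm38, in a stretch without exons.
Hibadh intron anchor, chr6:52580525-52580724: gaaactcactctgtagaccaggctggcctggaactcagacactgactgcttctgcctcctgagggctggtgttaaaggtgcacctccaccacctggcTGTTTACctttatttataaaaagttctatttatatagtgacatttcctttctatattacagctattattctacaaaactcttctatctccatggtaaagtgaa
Of the 92 partner anchors of the HOX loops that were not HOX anchors themselves, 12 (13.04%) held the forkhead core in their central 1000 bp and 2 (2.17%) the HNF4 motif, against 19.8% and 1.75% of all anchors.

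Other partners of Hoxa13 lay in the same region, not all of them with high values. Hoxa13 was joined to chr6:52543574-52545370, 280 kb away and at no gene, in FOXA1 tumour (5.34) and HNF4G liver mets (1.90). It was joined to chr6:52824803-52827765 in an intron of Jazf1, 562 kb away, in FOXA1 liver mets (3.60), FOXA1 tumour (1.91) and HNF4G tumour (3.87). The loop 575 kb to another intronic anchor of Jazf1, chr6:52837860-52840476, was in FOXA1 liver mets, HNF4G liver mets and HNF4G tumour at 1.84 to 1.99. Jazf1 encodes a zinc finger protein, and its own start had no anchor.

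Promoters were rare among the partners of Hoxa and common among those of the other clusters. A protein-coding start lay within 2 kb of the partner in 7 of 65 Hoxa loops (10.8%, 5.32 to 20.6), 10 of 21 Hoxb loops (47.6%, 28.3 to 67.6), 17 of 31 Hoxc loops (54.8%, 37.8 to 70.8) and 3 of 6 Hoxd loops (50%, 18.8 to 81.2), loops between HOX anchors left out. Seen from all protein-coding promoter anchors the share was 50.8%. The interval of Hoxa thus lay below that of Hoxb and Hoxc and below the general share. The 65 Hoxa loops included 9 to anchors in the cluster or the 10 kb beside it, which were at no protein-coding start. The other clusters had no loops of that kind, which lowers the Hoxa share beside theirs. The share of promoters among the anchors available around each cluster was not calculated.

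The promoters contacted most by Hoxa were those of Tax1bp1, an autophagy adaptor, in 4 list entries, Hibadh in 3 and Skap2, an adaptor of immune cell signalling, in 2. Hoxa13 to Tax1bp1, 450 kb away, was in FOXA1 tumour (1.87), HNF4G liver mets (3.75) and HNF4G tumour (1.97). Hoxa13 to the Hibadh promoter, 376 kb away, was in the same 3 lists at 1.84, 1.95 and 3.64. Neither was in FOXA1 liver mets, in which the Tax1bp1 and Hibadh anchors themselves had 7 and 12 loops.

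Hoxb7 was joined in 2 lists each to the promoters of Igf2bp1, an RNA-binding protein of growth control (FOXA1 liver mets 1.64, HNF4G tumour 1.88), Cdk5rap3 (FOXA1 liver mets 1.84, FOXA1 tumour 1.91) and Prr15l (FOXA1 liver mets 1.84, HNF4G tumour 1.99). These values were below 2. Its loops above 2 went to Cbx1, a heterochromatin protein, in FOXA1 tumour (3.60), to Zfp652 in HNF4G tumour (3.79), and to 2 anchors with no protein-coding start, in FOXA1 tumour (3.56) and HNF4G tumour (3.84). All 4 were in tumour lists, and each was in 1 list.

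In Hoxc the promoters with most entries were Calcoco1, Smug1, a DNA glycosylase of base repair, and Gpr84, a receptor of fatty acids, with 3 each. Gpr84 was contacted by all 3 anchors, by Hoxc9 in FOXA1 liver mets (5.36) and by Hoxc11 (1.94) and Hoxc13 (1.95) in HNF4G tumour. The value of 5.36 was the highest of any HOX loop in FOXA1 liver mets. Smug1 was contacted by Hoxc11 in FOXA1 liver mets (1.52) and HNF4G liver mets (3.31) and by Hoxc9 in FOXA1 liver mets (1.46). No entry for Smug1 was in a tumour list. Hoxc11 to Zfp385a in HNF4G tumour had 3.65.

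Hoxd12/Hoxd13 was joined in 1 list each to the promoters of Chn1 in HNF4G liver mets (1.99), Atp5g3 in HNF4G tumour (3.92) and Lnpk in FOXA1 liver mets (0.0889). Lnpk lies next to the cluster on the Hoxd13 side, where digit enhancers are known. It was the only Hoxd partner under 100 kb away, at 93.8 kb. The other 5 lay between 761 and 1144 kb away.

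The median span of the HOX loops was 455 kb (348 to 520), against 221 kb for all distinct loops. Spans depend on where anchors lie. Within 100 kb Hoxb had no possible partner anchor. Hoxc had 2 possible pairs from 20 to 50 kb and 1 from 50 to 100 kb, and Hoxd had 1 from 50 to 100 kb. A preference for long loops was not tested. By cluster it was 455 kb in Hoxa (280 to 564), 504 kb in Hoxb (462 to 633), 329 kb in Hoxc (228 to 369) and 886 kb in Hoxd (93.8 to 1144). The Hoxb and Hoxc intervals did not overlap. The shortest loop was that of Hoxa13 at 5.71 kb and the longest one of Hoxa9/Hoxa10 at 1972 kb.

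**Figure D4:**
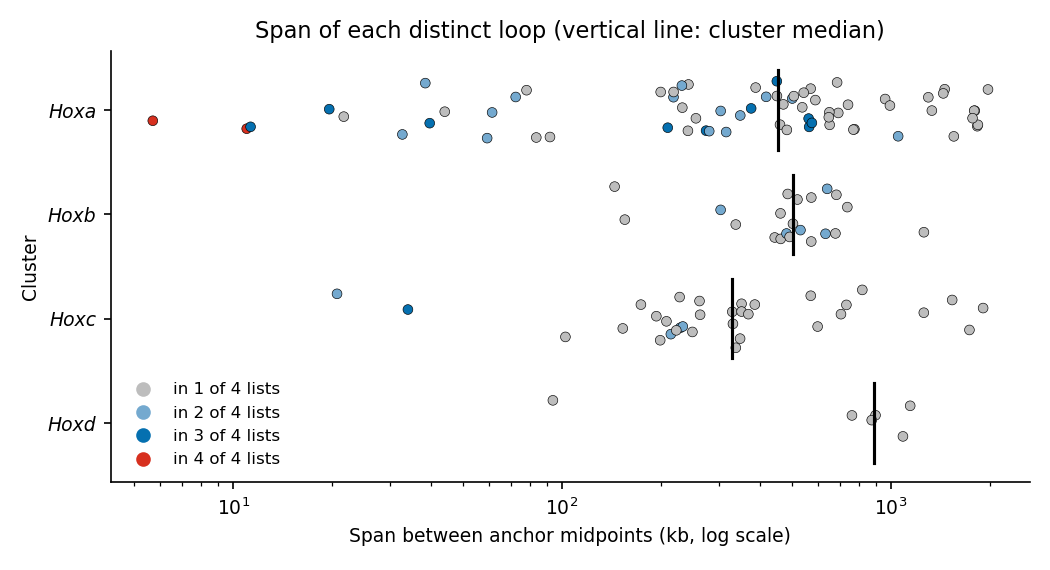
Span of each distinct HOX loop (horizontal axis, kb, log scale) by cluster, coloured by the number of lists that held it, with the cluster median as a vertical line; vertical scatter within a cluster has no meaning. Loops in 4 lists are at 5.71 and 11 kb in Hoxa, all 6 Hoxd loops are in 1 list, and the medians are 455, 504, 329 and 886 kb.

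Most HOX loops were in 1 list only. Of the 128, 92 were in 1 list, 23 in 2, 11 in 3 and 2 in all 4. The share in all 4 lists was 1.56% (0.430 to 5.52), and 2.71% of all loops would be so at the same spans. The share in 1 list was 71.9% (63.5 to 78.9), against 75.9%. Both shares of all loops lay within the intervals. The loops found in 1 list were 19 in FOXA1 liver mets, 22 in FOXA1 tumour, 13 in HNF4G liver mets and 38 in HNF4G tumour.

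Most HOX loops found in 3 or 4 lists were those of Hoxa. Hoxa held 10 of the 11 loops in 3 lists, of which 6 were in every list but FOXA1 liver mets, and both loops in 4 lists. Its share in all 4 lists, 2.94% (0.810 to 10.1), was no higher than the 3.79% of all loops at the same spans. Its share in 1 list was 61.8% (49.9 to 72.4), and the 73.7% of all loops at the same spans lay just above that interval. Of its HNF4G liver mets loops 13 were also in HNF4G tumour, which is 52% of the former and 38.2% of the latter. Between FOXA1 liver mets and FOXA1 tumour 4 were shared, 20% and 13.8%. In Hoxb and Hoxc no HNF4G loop was shared between liver mets and tumour, with 2 and 11 loops in Hoxb and 4 and 18 in Hoxc. Of the 18 Hoxc loops in HNF4G tumour, 16 were in no other list. The share in 1 list was 76.2% (54.9 to 89.4) in Hoxb and 84.85% (69.1 to 93.4) in Hoxc. Of all loops at the same spans, 81.7% and 75.6% were in 1 list, within these intervals, so neither cluster was set apart. Shares of loops common to a pair of lists were not calculated over all loops. The counts shared between lists are therefore a description and show no difference between the clusters.

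Many of the values were tied. In each list a large number of loops carried 1 of 2 identical values, such as 1.87 and 0.0889 in FOXA1 liver mets, and of the HOX loops 5, 14, 12 and 15 did so in FOXA1 liver mets, FOXA1 tumour, HNF4G liver mets and HNF4G tumour. All 12 Hoxa loops over 1000 kb had values between 1.87 and 1.99. With a value of 2 or more there were 4, 8, 3 and 10 HOX loops in that order, so by count HNF4G tumour was the highest and HNF4G liver mets the lowest. Relative to list size FOXA1 liver mets was still the lowest, with FOXA1 over HNF4G in liver mets at 0.641 (0.108 to 4.38). These counts are small, and that interval included 1.

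Genes related to the HOX clusters were counted in the same way. An anchor lay within 2 kb of 8 of 9 cofactor genes, Pknox2 being the exception, against 49.2% of all protein-coding genes. With 9 genes this is a description, and 26 of 34 genes beside the clusters also had an anchor. Pbx2 had 26 loops in FOXA1 liver mets and 18 in each other list. Meis1, a partner of HOXA9, had 5 loops in FOXA1 liver mets, 2 in FOXA1 tumour and 0 in both HNF4G lists, and Meis2 had 11, 10, 10 and 3 in the order of the lists. Neither thus shared the high count of HNF4G tumour seen at Hoxa9/Hoxa10.

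Of the 6 ParaHox genes, which descend from the same ancestral cluster, 3 had an anchor. Pdx1, which specifies the pancreas, had 29 loops in FOXA1 liver mets, 16 in FOXA1 tumour, 13 in HNF4G liver mets and 16 in HNF4G tumour. Cdx2, an intestinal factor, had 10, 6, 8 and 14, and Gsx1, beside Pdx1, had 5, 2, 6 and 16. Gsx2, Cdx1 and Cdx4 had none. Of the 34 listed genes that flank the HOX clusters 26 had an anchor, and Prac1 could have none because it was not in the annotation. Over all protein-coding genes the share with an anchor was 49.2%. Evx1 and Evx2, homeobox genes next to Hoxa13 and Hoxd13, had none. Of 14 noncoding RNA genes inside the clusters, Hottip, Mir196b and Mir196a-2 had an anchor, in each case that of a HOX gene, and Hotair, Hotairm1 and Haglr were among the 11 that had none.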

How the data were processed

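Mouse Hi-ChIP data from 8 samples were available as 4 loop lists, 1 per group, with 2 replicates joined in each in a way not stated. As the submitters' notes give it, HiC-Pro 3.1.0 was run on mm10, and the study names hichipper for the loops. An unnamed value stood beside each loop in the deposited lists, and its ties and range alone led to its reading as a −log10 adjusted p-value. Anchors were compared with all transcript starts of GENCODE M21 (GRCm38, the assembly mm10 names) at 2 kb, and coordinates count from 1. Loops were the same when both anchors were identical, and spans run between anchor midpoints. Shares were divided by the loops in the list. Intervals are exact Poisson (counts), exact Clopper-Pearson (ratios), Wilson (shares) or order-statistic (medians), at 95%. Expected counts applied the share of all anchor pairs listed in 9 span ranges up to 2000 kb. All members were reported, and for each cluster the 3 outward promoters with most list entries, other partners being named after their values were seen. The members and gene lists were chosen with earlier results of these data known. Python 3.11.15, pandas 2.3.3, numpy 2.4.6 and scipy 1.17.1 were used, and the ratio was tested on simulated data. Alternatives were other distances, starts, value minimums, divisors and overlaps, each HOX anchor left out in turn being added after the data were seen.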

Additional observations from a re-analysis of the deposited data

Results flagged for a closer look

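In 2 clusters the liver mets over tumour ratio of loop shares lay on opposite sides of 1 for the 2 factors. In Hoxc it was 1.18 (0.407 to 3.67) for FOXA1, from 10 and 7 loops, and 0.217 (0.0535 to 0.659) for HNF4G, from 4 and 18. In Hoxd it was 0.415 for FOXA1, from 1 and 2 loops, and 1.96 for HNF4G, from 2 and 1, so that both Hoxd ratios rest on a difference of 1 loop. With 1 list per group, no test of the FOXA1 ratio against the HNF4G ratio was made in either cluster.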

How the results depend on the processing

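No paired analysis was possible because the 2 replicates of each group were deposited as 1 list. Of 177 values recomputed under the alternatives, 163 moved by less than their interval and 14 moved further, and 11 could not be calculated. No ratio whose interval excluded 1 changed its side of 1. Of those whose interval included 1, FOXA1 over HNF4G in liver mets rose to 1.12 with no division by list size, and with a value of at least 2 the Hoxc ratio for FOXA1 fell to 0.697 and the Hoxd ratio for HNF4G to 0. With a value of at least 2, the liver mets over tumour ratio for all clusters fell to 0.348 (0.0768 to 1.30) for FOXA1 and 0.298 (0.0526 to 1.16) for HNF4G, whose interval then included 1, as did that of FOXA1 over HNF4G in the tumour line, at 0.548 (0.188 to 1.54), and those of HNF4G in Hoxb and Hoxc. At −log10 of 0.05 the Hoxa ratio for HNF4G was 0.464 (0.228 to 0.903), below 1. With a value of at least 2, the Hoxa share in all 4 lists and the within-cluster shares of Hoxa and Hoxc were 0. The Hoxc share was also 0 at a value of at least −log10 of 0.05. The Hoxa share in all 4 lists was 0 with starts inside the anchor and 20.6% with anchors widened by 5 kb, and the within-cluster share of Hoxa was 13.2% when any pair of anchors wholly inside the cluster window, with 10 kb added on each side, counted, which left out the loops to chr6:52268132-52271843, an anchor that reaches past the window's edge. Leaving out 1 HOX anchor at a time kept the 4 ratios over all clusters inside their intervals, but the FOXA1 liver mets over tumour interval then lay below 1 without Hoxa4, at 0.598 (0.364 to 0.971), and without Hoxc9, at 0.626 (0.389 to 0.9998). Of the HOX results, those for Hoxd rest on 6 loops and those for Hoxb on 1 anchor. Depth in read pairs is unknown, so list size stood in for it. With no division by list size the ratios for all clusters were 0.516 to 1.12, and FOXA1 over HNF4G in the tumour line was 0.703 (0.469 to 1.05).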
